A study of Mus musculus with 36 samples.

Results

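The naïve myelinated optic nerve (MON) was compared with the naïve retina in 4 bulk RNA-seq libraries of the 36 in the series, chosen by labels that give the tissue as MON or retina, the treatment as naïve and the time as 0 days. Each tissue gave 2 libraries, 1 made from pooled RNA of 2 female mice and 1 from 2 male mice. All were C57BL/6 mice, 2 to 4 months old, with neither eye treated, and the same 4 mice gave both tissues. MON tissue came from where the nerve is already myelinated, nearest to the eye, leaving out the border with the UON, and retinas were dissected away from the layers beneath them, of which traces may remain. The study asked how gene expression differs between retina, unmyelinated optic nerve (UON, the part of the nerve next to the eye) and MON, and how it changes after optic nerve crush and in a glaucoma model made by microbead injection. The 2 naïve UON libraries shared the fit, and the 20 injured MON and retina libraries held the same tissue comparison in other mice. Mice and sex cannot be separated within a pool. Each tissue had 2 pools, and the naïve fit held a sex term. Its p-values test the tissue difference, judged against how unlike the female to male difference was across MON, retina and UON. The estimate of that spread drew on all genes.

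The optic nerve carries the axons of retinal ganglion cells, whose cell bodies lie in the retina, and holds no neuronal cell bodies of its own. In the MON these axons are wrapped by oligodendrocytes, among astrocytes, precursor cells, microglia, vessels and the meninges around the nerve. The mouse retina has no oligodendrocytes and no myelin, and its neurons are mostly rods, with cones, bipolar, horizontal, amacrine and ganglion cells, and Müller cells as the main glia.

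The MON libraries held 78054205 (female) and 17757595 (male) estimated counts and the retina libraries 43795226 and 37153668, and 23685 of 55487 genes passed the filter on low counts. A pair of reads adds about 4 of these counts. Levels of 1 gene across libraries are given as CPM, counts scaled to a common library total with TMM factors, and levels of different genes are compared only as FPKM, which divides by transcript length. Over log2 CPM the female and male pools lay 219.8 apart in MON and 141.1 apart in retina by Euclidean distance, while MON and retina pools lay 381.3 to 401.9 apart. Genes of the mitochondrial genome were listed at 0 in some libraries and abundant in others (mt-Co1, a subunit of cytochrome oxidase, had 0 CPM in the female MON pool and 15900 in the male), so they are not described.

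Tissue moved a large share of the genome. By edgeR's quasi-likelihood test with Benjamini-Hochberg adjustment over all genes tested, 3960 genes were higher in MON (16.7%) and 2572 were lower (10.9%), where a call required an adjusted p below 0.05 together with a log2 difference larger than 1 in size. Every log2 difference below is MON minus retina from this fit, unless it is named otherwise. The ± after it is an approximate standard error, the size of the difference divided by the square root of the test's F statistic. Counts of genes called in each list below are to be read beside the 16.7% and 10.9% of all genes tested. The median over all genes tested was 0.00. Scaling by library size alone moved that median to -0.45 and gave 3034 genes higher and 4115 lower, and the FPKM values (limma on log2(FPKM + 1)) moved it to -0.38 with 2626 higher and 4409 lower, so the split between the directions depended on the scaling. In bulk RNA, fewer cells of a type and less RNA per cell cannot be told apart.

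The genes that differed most were oligodendrocyte genes in the nerve and photoreceptor or interneuron genes in the retina. Toward MON, the 10 largest differences among genes with a mean of at least 50 CPM in either tissue belonged to Neu4 (a sialidase), Gjc3 (connexin 29), Plxnb3 (a semaphorin receptor), Mog, Mobp, Mag, Cldn11, Klk6 (a protease), Gjb1 (connexin 32) and Enpp6, and after Neu4 they ran from 12.28 down to 10.77 on the log2 scale. Toward the retina 9 of the 10 belonged to Samd7, Gabrr1, Tfap2b, Scgn, Ppm1n, Pdc (phosducin), Rd3, Pde6g and Ankrd33, and after Samd7 and Gabrr1 they ran from -11.56 to -10.74. Neu4 had 0 counts in both retina pools and 75.8 and 42.6 CPM in the female and male MON pools, at least 485-fold higher against a floor of 12 counts over both retina pools. Samd7, a photoreceptor chromatin regulator, had 0 counts in both MON pools and 139 and 130 CPM in retina, at least 914-fold lower against the same floor over the MON pools. In all, 207 genes called higher in MON had no count in either retina pool, and 181 called lower had none in either MON pool.

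By FPKM, Mbp led the MON at 36600 ± 2910 (SD, n = 2 pools), followed by Fth1, the ferritin heavy chain, at 20100 ± 2240. Mobp (6690 ± 986) also stood among the 10 highest, with Apoe and 5 genes with Gm or clone names. Of these 5, Gm29216 had 0 FPKM in the female MON pool and 10100 in the male, and was not tested. In the retina the rod genes Pde6g (8770 ± 448), Gnat1 (8490 ± 139), Sag (4660 ± 209) and Rom1 (3030 ± 61.5) stood among the 10 highest, and these 4 genes had means of 4.27 to 18 FPKM in MON. Apoe, a lipid carrier, varied within both tissues, with 3060 and 14000 CPM in MON and 1100 and 209 in retina, and its difference of 3.66 ± 1.07 passed the test (adjusted p = 0.0388) but not without the male MON pool or without the male retina pool (2.04 in both fits).

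**Figure D1:**
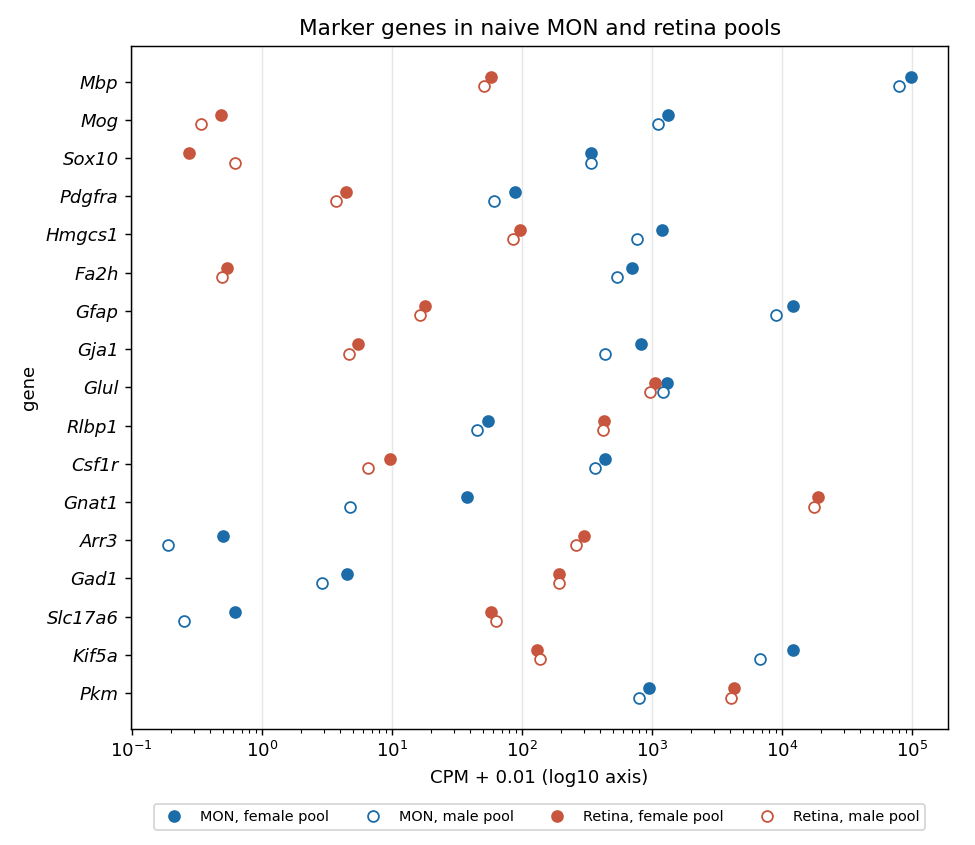
CPM of 17 marker genes in each naïve pool on a log10 axis (CPM + 0.01), with filled symbols for female and open symbols for male pools of MON and retina. Myelin and astrocyte genes sit far to the right in MON and rod and cone genes far to the right in retina (Mbp 98300 and 79700 CPM in MON, 58.4 and 50.9 in retina), while Glul has 1310 and 1220 CPM in MON against 1050 and 976 in retina.

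All 25 genes of the myelin and mature oligodendrocyte list were higher in MON, against 16.7% of all genes tested. Mbp, a major protein of compact myelin, had 98300 and 79700 CPM in the female and male MON pools and 58.4 and 50.9 in retina. Mog, a glycoprotein of the outer myelin surface (chromosome 17, 37010743 to 37023398, minus strand, GRCm38), had 1320 and 1110 against 0.475 and 0.328. Both MON pools lay far above both retina pools for both genes, with log2 differences of 10.66 ± 0.47 and 11.56 ± 0.34 (adjusted p = 2.54e-05 for each). Over the list the median log2 difference was 8.47.

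The list members with the smallest differences are genes that the retina also expresses well. Car2, a carbonic anhydrase, had 2260 and 1780 CPM in MON and 663 and 644 in retina, a log2 difference of 1.61 ± 0.25 (adjusted p = 0.00253) that was not called without the female retina pool (1.44). Plekhb1 (2.80), Sirt2, a deacetylase (2.83), and the receptor Gpr37 (3.00) came next. Summed over the list, the 25 genes made 193000 and 151000 CPM in MON against 2140 and 2090 in retina. Within the nerve, 22 of the 25 were also higher in MON than in UON (4.8% of all genes were, and 9.63% were called in either direction), with a median MON minus UON log2 difference of 2.83. Apod, a lipid carrier protein, was among the 3 that were not, with 1860 and 2100 CPM in MON and a mean of 1460 in UON.

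Of 11 oligodendrocyte transcription factors 10 were higher in MON. Sox10, needed for oligodendrocyte differentiation, had 339 and 338 CPM in MON and 0.266 and 0.613 in retina, and Olig1 had 886 and 786 against 0.456 and 0.547. Myrf, the activator of myelin genes, had 294 and 332 against 1.03 and 1.69. Each MON pool lay far above both retina pools for these 3. Nkx2-2 had 0 counts in both retina pools and 12.1 and 11.6 CPM in MON, at least 96.6-fold higher. Not every member was this restricted: Sox8 (21 and 19.2 CPM), Zfp536 (48.6 and 54.6) and St18 (17.7 and 19.9) had RNA in both retina pools, and Zfp488 did not pass the test (1.18 ± 0.40, adjusted p = 0.0655). The median was 7.86, or 6.59 with Nkx2-2 at its bound.

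The letters ACAAAG, the core of the site bound by SOX proteins, were searched on both strands of the RefSeq promoter windows (250 bases before to 50 after the start site, GRCm38.p6). They occurred in 7 of the 20 myelin list genes that had a window (35.0%) and in 21% of all 27025 genes in the table. Mobp, a myelin structural gene, had the most matches, 6 in the 250 bases upstream of its start (chr9:120149492-120149741, plus strand). They are shown in capitals, all of them in the reverse reading, because they recur in 1 short stretch.
Mobp: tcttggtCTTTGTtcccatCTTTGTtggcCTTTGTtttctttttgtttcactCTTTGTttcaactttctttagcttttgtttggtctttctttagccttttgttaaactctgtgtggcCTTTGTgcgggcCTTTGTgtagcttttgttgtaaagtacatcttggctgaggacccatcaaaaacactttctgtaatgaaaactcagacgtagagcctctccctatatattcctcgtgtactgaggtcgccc

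Of 12 genes of oligodendrocyte precursor cells, 8 were higher in MON and 1 was lower, against 16.7% and 10.9% of all genes tested. The list median was 3.26. Pdgfra, the growth factor receptor that marks precursor cells, had 89.0 and 61.5 CPM in MON and 4.41 and 3.72 in retina (4.19 ± 0.24, adjusted p = 4.18e-05). Gpr17, a receptor of newly forming oligodendrocytes, had 140 and 75.4 CPM against 0.304 and 0. C1ql1, a secreted synaptic organizer, was lower, with 3.72 and 6.47 CPM in MON and 26.9 and 23.8 in retina (-2.36 ± 0.35, adjusted p = 0.00213). Lhfpl3 (-0.30), Cacng4 (0.63) and Bmp4 (2.32) did not pass the test.

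Genes of cholesterol synthesis were higher in MON by modest factors: 14 of 20 were called higher and 0 lower, with a median of 1.45. The pathway builds cholesterol from acetyl-CoA, and myelin is rich in it. Hmgcs1, the synthase that begins the mevalonate branch (chromosome 13, 119690379 to 119708260, plus strand), had 1200 and 763 CPM in MON and 96.1 and 85.8 in retina, the largest difference of the list (3.41 ± 0.28, adjusted p = 0.000133). The late enzymes Sqle (2.43), Sc5d (2.25), Cyp51 (2.24) and Msmo1 (2.21) were called higher, and Mvk (0.95), Pmvk (0.62), Tm7sf2 (0.54), Nsdhl (0.98) and Ebp (0.79) were not. With library size alone 10 of the 20 were called higher and with FPKM 9, and 0 were lower in either.

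Regulators and transporters of cholesterol did not move as a block. Soat1, which esterifies cholesterol, had 89.7 and 74.5 CPM in MON and 7.95 and 11.5 in retina (3.07 ± 0.29, adjusted p = 0.000267). Npc2 and Npc1, which move cholesterol out of lysosomes (2.64 and 2.22), and the pathway's master factor Srebf2 (1.93) were higher as well. In all, 8 of 14 were higher and 0 lower, and Abcg1, an exporter, had 170 and 153 CPM in MON against 140 and 152 in retina (0.14 ± 0.21, adjusted p = 0.684). The sterol response letters TCACNCCAC occurred in the window of 1 of the 15 cholesterol genes with a promoter entry (6.67%) and of 1.44% of all genes. That window was of Hmgcs1, the gene with the largest difference; the 200 bases upstream of its start (chr13:119690151-119690350, plus strand, RefSeq, GRCm38.p6) hold the match in capitals.
Hmgcs1: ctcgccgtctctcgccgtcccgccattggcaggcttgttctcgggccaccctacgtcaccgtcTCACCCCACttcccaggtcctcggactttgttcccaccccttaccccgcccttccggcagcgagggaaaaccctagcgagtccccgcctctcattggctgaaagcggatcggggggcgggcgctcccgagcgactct

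Genes for the lipids that myelin adds to cholesterol had a stronger difference from the retina. Of 20 genes of sphingolipid and fatty acid metabolism, 18 were higher in MON and 0 lower, with a median of 3.38. Within the nerve, 7 of the 20 were higher in MON than in UON (4.8% of all genes were) and 0 lower. The median MON minus UON log2 difference was 0.38. Fa2h, which makes the hydroxylated fatty acids of galactolipids, had 700 and 541 CPM in MON and 0.532 and 0.482 in retina (10.24 ± 0.31, adjusted p = 2.54e-05). Ugt8a, which makes galactosylceramide, had 305 and 488 against 1.22 and 1.14, and Gal3st1, which sulfates it, had 78 and 82.9 against 0.551 and 0.876. The general enzymes differed less, and Acaca, which commits acetyl-CoA to fatty acids, differed by 1.39 (not called with library size alone or with FPKM). Kdsr, an early enzyme of sphingolipid synthesis, had 63.9 and 56.4 CPM in MON and 74.8 and 82.9 in retina and was not called (-0.39 ± 0.20, adjusted p = 0.204).

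**Figure D2:**
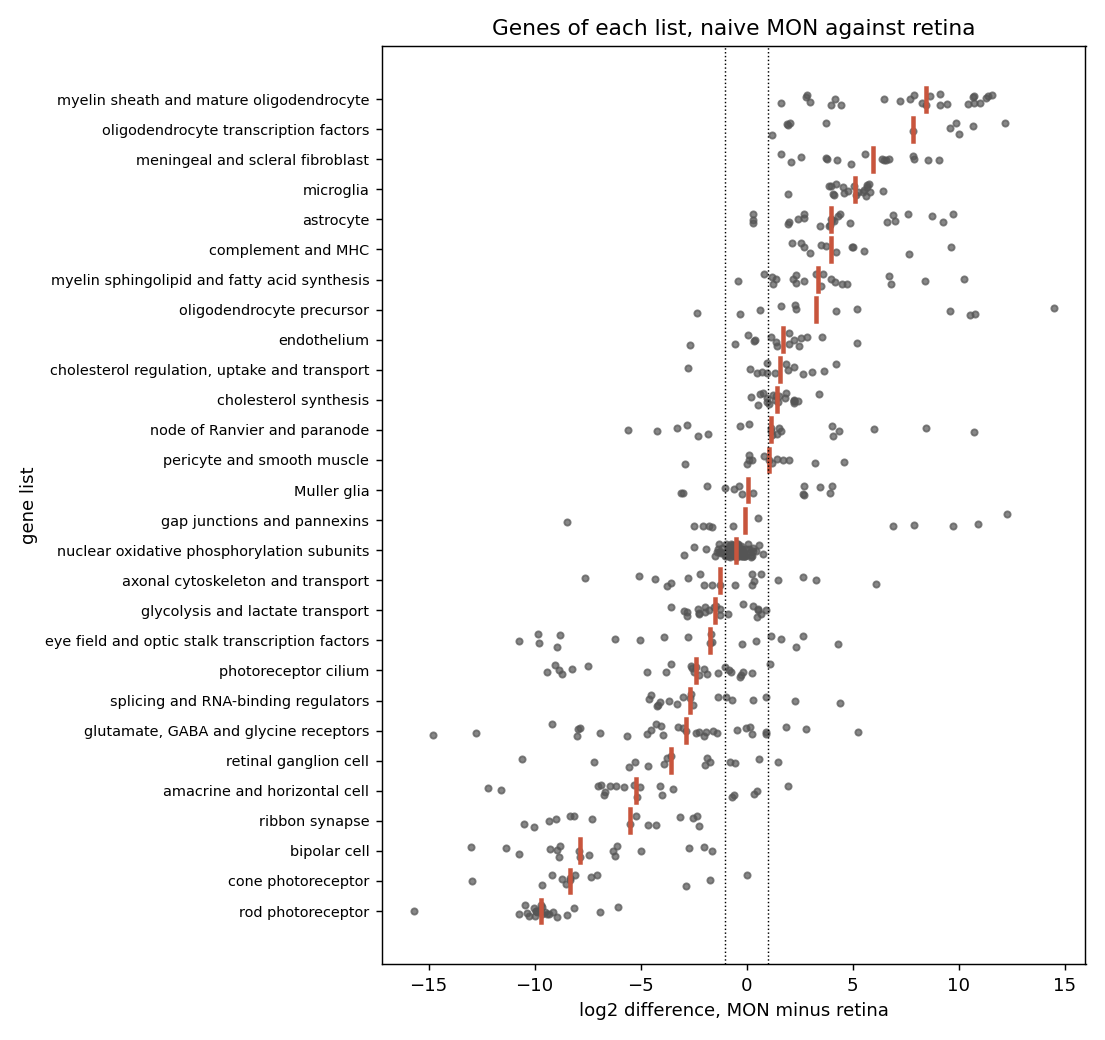
Log2 difference (MON minus retina, edgeR) of every tested gene in 28 gene lists, 1 point a gene, with the list median as a vertical bar and dotted lines at -1 and 1; genes at 0 counts in 1 tissue are drawn at their fitted value, which is no measure of size. Rod genes lie wholly to the left (median -9.71) and myelin genes wholly to the right (median 8.47), while Müller glia genes spread over both sides of 0 (median 0.06).

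Astrocyte genes were higher in MON in 21 of 24 cases, with a median of 4.00. Gfap, the intermediate filament of astrocytes, had 12200 and 9030 CPM in MON and 18 and 16.5 in retina (9.26 ± 0.45, adjusted p = 2.97e-05). Gja1 and Gjb6, the astrocyte connexins, differed by 6.89 and 9.71, and the water channel Aqp4 by 2.72, with 823 and 467 CPM against 91.2 and 98.6. The 3 members that were not called, Slc1a2 (a glutamate transporter), Glul (glutamine synthetase) and Aldoc (an aldolase), differed little: Slc1a2 had 258 and 340 CPM in MON and 237 and 239 in retina. Glul differed by 0.32 ± 0.23 and Aldoc by 0.28 ± 0.33.

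Müller glia genes went both ways. Among 14 listed, 6 were higher in MON, all of them genes that astrocytes are known to express (Slc1a3, Kcnj10, Aqp4, Sox9, Clu and Prdx6), and 3 were lower. Rlbp1, the retinaldehyde-binding protein of Müller cells, had 54.5 and 45.2 CPM in MON and 425 and 418 in retina (-3.09 ± 0.22, adjusted p = 8.3e-05). Abca8a (-3.02) and Rdh10, a retinol dehydrogenase (-1.89), were the other 2. The list median of 0.06 was -0.40 with library size alone.

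Gap junction genes of glia and of neurons went opposite ways. The oligodendrocyte connexins Gjc3 and Gjb1 had 500 and 350 CPM in the female MON pool and 424 and 274 in the male, and at most 0.228 CPM in retina. Gjd2, the connexin of electrical synapses between neurons, had 0.230 and 0 CPM in MON against 55.4 and 55.9 in retina (-8.49 ± 0.69, adjusted p = 0.000298). Of 12 genes 5 were higher and 4 lower, and without any 1 of the 4 pools the number called lower was 1 or 2.

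All 23 rod genes were lower in MON, against 10.9% of all genes tested. Gnat1, the rod transducin (chromosome 9, 107674474 to 107679712, minus strand), had 18900 and 17700 CPM in retina and 38.2 and 4.72 in the female and male MON pools (-10.44 ± 0.92, adjusted p = 0.00019). Sag, the rod arrestin, had 8040 and 7530 CPM against 19.2 and 2.48 (-10.01 ± 0.85, adjusted p = 0.000169). Retina and MON did not overlap for either gene, but the female MON pool stood above the male in each. The list median was -9.71, and it was -10.68 without the female MON pool and -9.03 without the male. The smallest difference was that of Gnb1 (-6.07 ± 0.31), a G protein subunit used in many cell types.

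Trace rod RNA in the nerve differed between the pools. As a percent of the level in the retina pool of the same sex, the median rod gene stood at 0.233% in the female MON pool and 0.0518% in the male, and 18 of the 23 genes were higher in the female. The cone, bipolar, and amacrine and horizontal cell lists did not show the same lean. Among genes called lower in MON, the percent was higher in the female pool for 5 of 12 cone genes and 8 of 16 bipolar genes. For amacrine and horizontal cell genes called lower it was higher there in 7 of 14. Ganglion cell genes called lower did lean to the female pool, in 7 of 10 cases, with medians of 6.19% (female) and 5.09% (male). List members called higher or not called are left out of these percents. Among the rod genes, Gnb1 went the other way, with 29.7 and 39.3 CPM in the female and male MON pools. Rom1, an outer segment protein, had 39.2 and 31.8. The naïve UON, dissected next to the eye, had a mean of 12.3 CPM of Gnat1. The female MON library was also the deeper of the 2, and the part of depth or dissection in this difference was not tested.

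**Figure D3:**
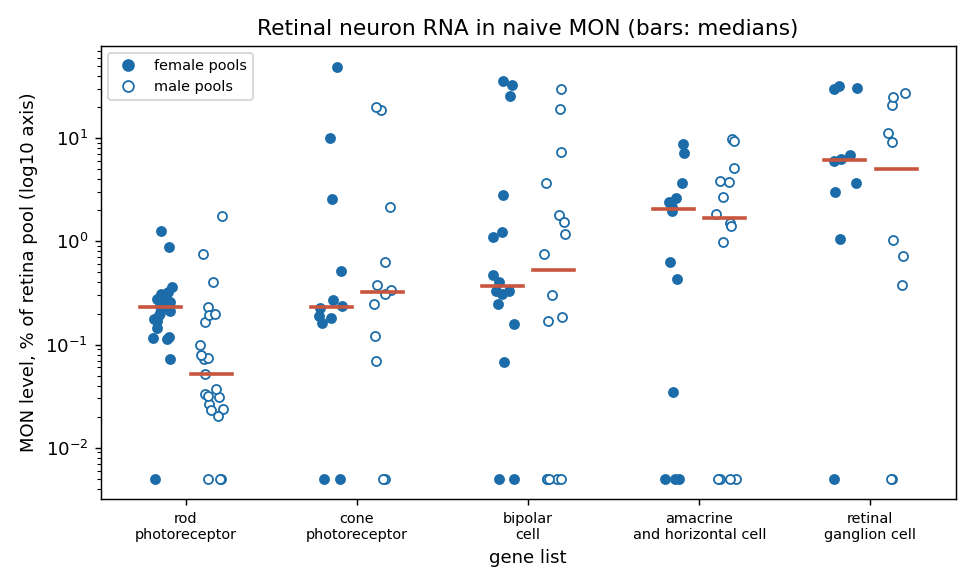
Level in MON of each retinal neuron gene called lower there, as a percent of its level in the retina pool of the same sex (log10 axis, values of 0 drawn at 0.005%). Female pools are filled and male pools open, and list members called higher or not called are not drawn. Rod medians are 0.233% (female) and 0.0518% (male), cone medians 0.231% and 0.323%, and ganglion cell genes lie highest, at 6.19% and 5.09%.

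TAATCC, the core site of the photoreceptor homeodomain factors Crx and Otx2, was searched in the same promoter windows. On either strand it occurred in 8 of the 16 rod genes with a window (50%), in 2 of the 9 cone genes (22.2%) and in 8.14% of all genes in the table. The 120 bases upstream of the start are shown for 4 rod genes as examples of where the letters stood, with matches in capitals (RefSeq, GRCm38.p6). Sag lies at chr1:87803560-87803679 on the plus strand, Gngt1 (the rod transducin gamma subunit) at chr6:3993888-3994007 on the plus strand, Guca1a (a guanylate cyclase activator) at chr17:47400607-47400726 on the minus strand and Cngb1 (a subunit of the rod channel) at chr8:95306586-95306705 on the minus strand.
Sag: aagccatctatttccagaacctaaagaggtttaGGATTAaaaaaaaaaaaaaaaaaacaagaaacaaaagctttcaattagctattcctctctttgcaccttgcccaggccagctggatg
Gngt1: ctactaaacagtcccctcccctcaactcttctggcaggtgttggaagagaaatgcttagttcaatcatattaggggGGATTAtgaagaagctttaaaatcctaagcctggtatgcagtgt
Guca1a: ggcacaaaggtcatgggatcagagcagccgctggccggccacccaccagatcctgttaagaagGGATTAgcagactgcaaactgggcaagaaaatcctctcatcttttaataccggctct
Cngb1: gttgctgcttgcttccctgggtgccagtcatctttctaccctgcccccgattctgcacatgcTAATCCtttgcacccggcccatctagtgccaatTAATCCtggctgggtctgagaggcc

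Gngt1 had 2950 CPM in each retina pool and 4.97 and 0.605 in MON, and Cngb1 had 1330 and 1320 against 3.47 and 0.484. Crx itself had 722 and 654 CPM in retina and 1.75 and 1.27 in MON (-8.93 ± 0.69, adjusted p = 0.000113), and Otx2 had 136 and 137 against 0.553 and 0. Both factors were lower in both MON pools than in either retina pool.

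Cone genes were lower in 12 of 13 cases, with a median of -8.33, or -8.08 with the member at 0 counts in MON at its bound. Arr3, the cone arrestin, had 302 and 263 CPM in retina and 0.491 and 0.181 in MON (-9.64 ± 0.42, adjusted p = 2.54e-05). Opn1sw and Opn1mw, the short and middle wavelength pigments, differed by -8.08 and -9.16. Rxrg, a nuclear receptor of cones, was not called, with 15 and 8.10 CPM in MON and 12.6 and 10.6 in retina. Gngt2, a cone transducin subunit, had 11.8 and 19.7 CPM in MON against 117 and 105 (-2.86 ± 0.29). Abi3 covers 12.5% of the exonic bases of Gngt2 on the opposite strand, and the counts may hold its reads.

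Bipolar cell genes were lower in 16 of 17 cases, with a median of -7.85, or -7.42 with the member at 0 counts in MON at its bound. Grm6, their glutamate receptor, had 78.9 and 64.5 CPM in retina and 0.246 and 0.484 in MON (-7.85 ± 0.78, adjusted p = 0.000319), and Trpm1, the channel it controls, had 275 and 219 against 1.29 and 0.665. Prkca, a kinase that marks rod bipolar cells, was an exception in size, with 47.5 and 39.1 CPM in MON (-1.61 ± 0.20, adjusted p = 0.00103). Lrit3 (-6.23 ± 1.99, adjusted p = 0.0526) was the member that was not called.

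Amacrine and horizontal cell genes were lower in 14 of 20 cases, with a median of -5.24. Gad1, which makes GABA, had 192 and 193 CPM in retina and 4.54 and 2.90 in MON (-5.79 ± 0.76, adjusted p = 0.00118). Slc18a3, the acetylcholine transporter of starburst cells, had 0 counts in both MON pools and 14 and 10.1 CPM in retina, at least 82.0-fold lower. Slc6a9, a glycine transporter that glia also use, went otherwise and had 256 and 105 CPM in MON against 47.3 and 39.9 (1.94 ± 0.30, adjusted p = 0.00252). An antisense neighbour covers 27.8% of the exonic bases of Slc6a9, and the counts may hold its reads.

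Genes of the ribbon synapse, the specialised release site of photoreceptors and bipolar cells, were lower in 15 of 15 cases (median -5.51). Cplx4, a complexin of that synapse, had 702 and 804 CPM in retina and 0.675 and 0.242 in MON (-10.51 ± 0.45, adjusted p = 2.54e-05), and Pclo, a scaffold that other synapses use too, differed least (-2.23 ± 0.24). Photoreceptor cilium genes were lower in 18 of 25 cases. Those of the outer segment and its axoneme, such as Tulp1 (-9.43), Rp1 (-9.03) and Rpgrip1 (-7.49), differed far more than the general transport genes Ift88 (-0.83), Kif3a (-0.19) and Ift140 (0.23), which were not called.

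Ganglion cell genes were lower in MON in 10 of 15 cases, with a median of -3.58 (-2.66 without the female MON pool), the nearest to 0 of the retinal neuron lists. Slc17a6, the vesicular glutamate transporter of ganglion cells, had 58.4 and 63.3 CPM in retina and 0.614 and 0.242 in MON (-7.19 ± 0.55, adjusted p = 0.000113). The ganglion cell factor Pou4f1 (-5.27) was also lower. Rbpms, which marks all ganglion cells, had 36.2 and 30.2 CPM in retina and 11.6 and 8.23 in MON (-1.75 ± 0.27, adjusted p = 0.00279), and Rbpms2, Jam2, Opn4 and Pou4f3 were not called. Tubb3, a neuronal tubulin, was the opposite, with 388 and 368 CPM in MON and 142 and 125 in retina (1.5 ± 0.21, adjusted p = 0.00148).

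Genes of the axon's own cytoskeleton and transport followed no single direction, although the axons run through the MON. Of 19 listed, 4 were higher in MON and 9 lower. Nefl and Nefm, the light and medium neurofilament chains, had 118 and 68.6, and 5.39 and 6.71 CPM in MON against 651 and 608, and 122 and 118 in retina (-2.77 ± 0.33 and -4.33 ± 0.26). The vesicle proteins Snap25 (-5.08) and Syt1 (-7.64) were lower still. In the other direction, the kinesin heavy chain Kif5a had 12200 and 6820 CPM in MON and 131 and 137 in retina (6.12 ± 0.45, adjusted p = 9.98e-05), and Mapt, the tau gene, had 792 and 933 against 135 and 141 (2.64 ± 0.22, adjusted p = 0.000161). Kif5a had a mean of 16000 CPM in UON, and Gap43, a growth-cone protein, was not called (0.27 ± 0.21). In the injured mice the Kif5a difference was 5.03 at 3 days and 0.46 at 2 weeks after crush, and 5.55 to 6.66 in glaucoma. The exons of Nefl and Nefm overlap each other in part on opposite strands (32.8% of Nefl and 19.2% of Nefm). Whether counting used strand was not stated, so Nefl and Nefm may share reads.

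At the node of Ranvier and its flanks, 12 of 20 genes were higher in MON and 6 lower. Those higher included Hapln2 (10.70 ± 0.81), a link protein of the nodal matrix, Cntn2 (8.45 ± 0.31) of the juxtaparanode, and Bcan (6.01 ± 0.29) and Vcan (4.35 ± 0.26), both matrix proteoglycans. The voltage-gated sodium channel genes were lower, with 4.68 and 3.45 CPM of Scn8a in MON against 37.7 and 38.1 in retina (-3.30 ± 0.58, adjusted p = 0.00446) and differences of -5.58 for Scn1a and -2.30 for Scn2a. Cntnap2 (-4.23), a neuronal adhesion protein, was lower too. Among potassium channels, Kcnq3 (4.08 ± 0.26) and Kcna1 (4.01 ± 0.59) were higher. With library size alone 8 of the 20 were called higher and with FPKM 7, with 6 lower in both.

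Neurotransmitter receptor genes were lower in 20 of 31 cases, with a median of -2.87, and 3 were higher. Gabrr1 and Gabrr3, GABA receptor subunits known from the retina, had 0 counts in both MON pools, and Gabrr1 had 72.9 and 67.7 CPM in retina, at least 479-fold lower. The metabotropic receptor Grm3 was the largest exception, with 143 and 78.7 CPM in MON and 2.95 and 2.58 in retina (5.26 ± 0.29, adjusted p = 3.6e-05). Gria1, an AMPA receptor subunit, had 320 and 177 CPM in MON and 36.4 and 33.4 in retina (2.79 ± 0.30, adjusted p = 0.000451), and its mean in UON was higher again, 1680 CPM. The AMPA subunit Gria2 went the other way, with 15 and 13.2 CPM against 135 and 128 (-3.24 ± 0.59).

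Eye field and optic stalk factors are the developmental switches that divide retina from nerve, and 12 of 19 were lower in MON and 3 higher (12 and 0 by limma on log2(FPKM + 1)). Vax2 (-6.23), Rax (-5.03) and Pax6 (-3.90) were lower, with Pax6 at 14.6 and 7.26 CPM in MON and 159 and 165 in retina. Pax2, the factor of the optic stalk and its astrocytes, had 2.58 and 3.93 CPM in MON and 0.228 and 0.0876 in retina (4.29 ± 0.71, adjusted p = 0.00358). Nr2f2 (1.62) and its relative Nr2f1 were the other 2 that were higher, and Nr2f1 was not called without the male MON pool (0.91) or the male retina pool (0.73). Lhx2 had 8.66 and 11.1 CPM in MON and 9.58 and 13.3 in retina, and Six3 (-1.69) and Six6 (-1.72) kept 10.7 to 19.5 CPM in the nerve.

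Regulators of neuronal splicing were lower in 12 of 18 cases. Srrm4, which drives the inclusion of microexons, had 43.4 and 40.5 CPM in retina and 2.49 and 0.847 in MON (-4.62 ± 0.56, adjusted p = 0.000851), and Rbfox1 (-4.50) and Celf4 (-4.18) were close to it. Qk, the RNA-binding protein that oligodendrocytes need for myelin, had 964 and 1110 CPM in MON and 40.6 and 55.9 in retina (4.42 ± 0.43, adjusted p = 0.000283). Elavl3 was the other higher member, with 197 and 259 against 45.3 and 49.1 (2.26 ± 0.21), while its relative Elavl2 (-4.22) was lower.

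Among noncoding RNAs, Neat1, the scaffold of paraspeckles, had 237 and 319 CPM in MON and 5.42 and 5.58 in retina (5.66 ± 0.34, adjusted p = 4.68e-05). Malat1, its neighbour in the genome, had 4040 and 6200 CPM against 5680 and 5630 and was not called (-0.15 ± 0.32). Meg3 (-5.29) and Mir124a-1hg, a host transcript of the neuronal miR-124 (-9.45), were lower.

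The retina is known for aerobic glycolysis. Of 22 genes of glycolysis and lactate transport, 14 were lower in MON (10.9% of all genes were) and 0 higher. Their median was -1.49. Pkm, pyruvate kinase, had 949 and 803 CPM in MON and 4250 and 4030 in retina (-2.24 ± 0.27, adjusted p = 0.000801), Ldha, lactate dehydrogenase A, 413 and 346 against 2630 and 2650 (-2.80 ± 0.28, adjusted p = 0.000352), and Eno2, the neuronal enolase, differed most (-3.59 ± 0.24). Ldhb (-0.18), the glucose transporter Slc2a1 (0.54) and the lactate transporter Slc16a1 (0.54) were not called, and Slc16a1 had 384 and 278 CPM in MON against 214 and 237. Of 81 nuclear genes for oxidative phosphorylation subunits, 11 were lower (19 without the male MON pool), near the 10.9% of all genes, and 0 were higher with a median of -0.51, and with library size alone 36 were lower with a median of -0.96, so their count depended on the scaling.

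Iron genes were higher in 5 of 10 cases and lower in 0, against 16.7% and 10.9% of all genes tested. With library size alone 4 of the 10 were called higher and with log2(FPKM + 1) 3. Fth1 had 27500 and 24900 CPM in MON and 985 and 672 in retina (5.01 ± 0.35, adjusted p = 7.7e-05), and Trf, transferrin, had 12000 and 8490 against 103 and 131 (6.47 ± 0.42). A readthrough transcript shares 63.5% of the exonic bases of Trf, so its counts are uncertain. Tfrc, the transferrin receptor, had 95.5 and 75.9 against 75.2 and 69.9 and was not called.

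Of 9 genes of the myelin signals that limit axon growth and of their receptors, 3 were higher in MON, 3 were lower and 3 were not called. The ligands Mag (11.29) and Omg (2.78) were higher in MON, and Rtn4, the Nogo gene, had 331 and 414 CPM against 342 and 371 (0.06 ± 0.21, adjusted p = 0.875), though it was called lower with FPKM (-1.29). Of the receptors, Rtn4rl2 had 0 counts in both MON pools and 12.5 and 13.5 CPM in retina, at least 88.4-fold lower, and Rtn4rl1 differed by -3.78 ± 0.30. Rtn4r was at 0.645 to 1.36 CPM in all 4 pools.

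Microglia genes were higher in MON in 20 of 20 cases, with a median of 5.12. Csf1r, the receptor that microglia depend on, had 438 and 367 CPM in MON and 9.64 and 6.5 in retina (5.66 ± 0.26, adjusted p = 2.66e-05), and Tmem119 had 177 and 147 against 2.40 and 3.53. Cx3cr1, the fractalkine receptor, was the least different, with 6.83 and 25.5 CPM in MON and 4.37 and 3.46 in retina (1.93 ± 0.60, adjusted p = 0.0477), and was not called without the male MON pool (0.62) or without the male retina pool (1.4). Genes of border macrophages were scarce, with at most 3.79 CPM in either MON pool. Of 9, 2 were higher (1 without the male MON or the male retina pool) and 1 lower, a share higher that is near the 16.7% of all genes.

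Complement and MHC genes were higher in 12 of 12 cases (median 3.96). C4b (chromosome 17, 34728380 to 34743882, minus strand) had 3440 and 2710 CPM in MON and 3.44 and 4.20 in retina (9.65 ± 0.40, adjusted p = 2.54e-05), and C3, the central component, had 236 and 275 against 0.893 and 1.80 (7.64 ± 0.32). B2m, the light chain of MHC class I, differed by 3.72 and Cd74, the class II chaperone, by 5.01.

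Markers of tissue around the nerve moved with the comparison. Fibroblast genes of meninges and sclera were higher in MON in 16 of 16 cases (median 5.98, or 5.24 with Dpt at its bound). With library size alone 13 of the 16 were called higher, and with log2(FPKM + 1) 11, with a median of 2.7. Col1a2 had 132 and 94.4 CPM in MON, 2.21 and 2.5 in retina and a mean of 1310 in UON. Summed over the list, the fibroblast genes made 3810 and 7760 CPM in MON and 188 and 203 in retina. Endothelial genes were higher in 10 of 16 cases (7 with library size alone and 5 with log2(FPKM + 1)), against 16.7% of all genes, and lower in 1 (Kdr, -2.66 ± 0.33, a growth factor receptor that retinal neurons also express), and pericyte and smooth muscle genes were higher in 4 of 13 (2 of 11 with log2(FPKM + 1)), with Vtn lower (-2.93 ± 0.26). Hemoglobin genes were higher in MON (Hba-a1, 215 and 184 against 44.8 and 30.5 CPM), with 4 of 5 blood genes called and 2 without the female MON pool. The part of these tissues in the glial differences was not tested.

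Of 4 Schwann cell genes tested, 1 was higher in MON (2 without the male retina pool) and 0 lower. It was Pmp22, a membrane protein of myelin-forming cells, with 463 and 318 CPM in MON and 18.4 and 15 in retina (4.54), which made nearly all of the list's sum of 466 and 322 CPM in MON against 21.7 and 18.2. Foxd3, of the Schwann cell lineage, had 0 counts in MON and retina, and no skeletal muscle gene was called of 8 tested. Of 12 genes of the pigment epithelium and melanocyte list, 3 were higher in MON (Stra6, Best1 and Mitf, at 2.34, 2.17 and 2.30) and 3 were lower, and without the male retina pool 1 was higher. Best1 (1.83 to 2.55) was not called without any 1 pool, and Mitf was not called without the male MON pool (1.35) or the male retina pool (1.83). By comparison, 16.7% of all genes tested were higher in MON and 10.9% lower. Stra6, a retinol transporter, had 39.3 and 51.2 CPM in MON and 7.87 and 10 in retina. Rpe65 (14.1 and 22.6 CPM in retina), Rgr (58.4 and 97.0) and Tyrp1 (2.07 and 1.31) were the lower ones, of which Tyrp1 was not called without the female MON (-4.86), male MON (-8.97) or female retina pool (-3.68), and Tyr had at most 1.54 CPM in any of the 4 pools. Of 6 crystallin and lens genes tested, 4 were higher in MON (2 or 3 without any 1 pool) and 0 lower. Those other than the small heat shock gene Cryab (1340 and 1140 CPM in MON, 41.4 and 39.9 in retina) had at most 5.73 CPM. Housekeeping genes were not all level: Gusb was higher (2.29 ± 0.23) and Hprt lower (-3.12 ± 0.21), while Actb (0.43), Ppia (0.33) and Rplp0 (0.12) were not called.

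The same tissue difference was looked up in mice that the naïve comparison did not use. The 20 libraries came from nerves and retinas 3 days or 2 weeks after crush and 3 days, 2 weeks or 6 weeks into glaucoma. Between 31.4 and 32.6% of genes were called in MON against retina after crush and between 30 and 32.4% in glaucoma. By direction, 15.2 to 15.9% were higher and 14.7 to 16.9% lower in the single conditions. The share of all genes called the same way in all 5 was not computed. Of the 3960 genes higher in naïve MON, 2545 were called higher in all 5 injured conditions (64.3%), and of the 2572 lower, 1775 were called lower in all 5 (69.0%). The sign was the same in all 5 for 3771 and 2455 genes. A call in the opposite direction in any injured condition was made for 16 and 17 genes.

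**Figure D4:**
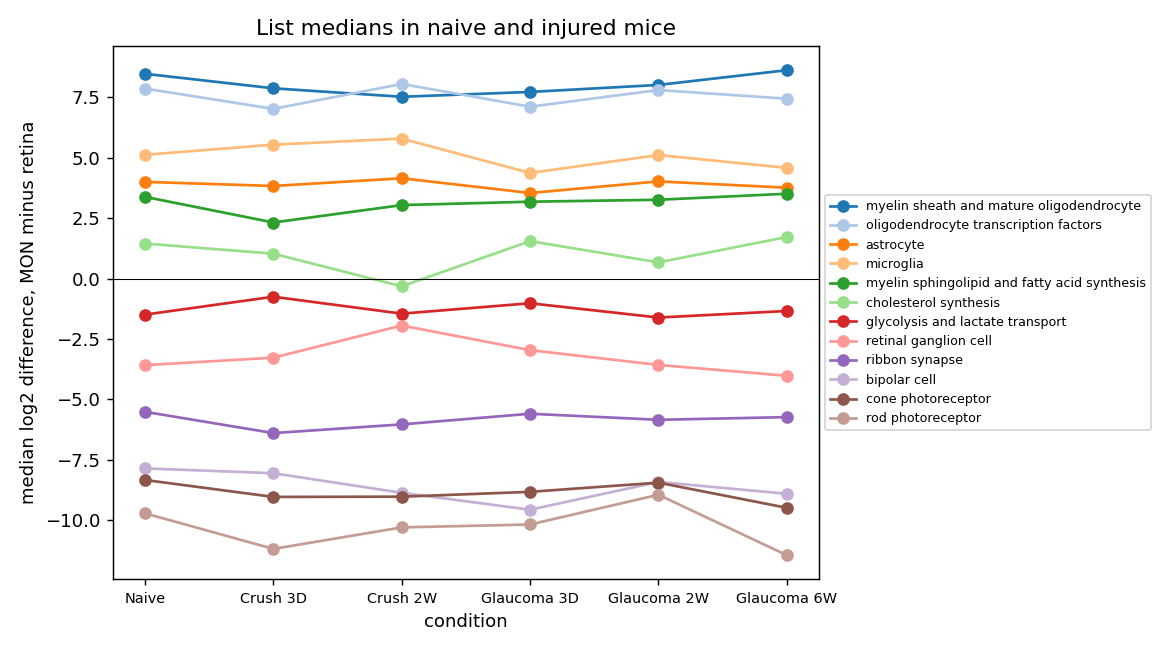
Median log2 difference (MON minus retina) of 12 gene lists in naïve mice and in the 5 injured conditions, 1 line a list. Naïve medians come from the naïve fit and injured medians from the separate fit of 24 libraries. Rod (-8.94 to -11.44) and myelin (7.52 to 8.62) medians stay far from 0 in every condition, while cholesterol synthesis is at 1.45 in naïve mice and -0.32 at 2 weeks after crush.

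Gene lists differed in how far they kept this difference. Myelin genes were called higher in 24 or 25 of 25 cases in each injured condition, with medians of 7.52 to 8.62, and rod genes were lower in 23 of 23 in each, with medians of -8.94 to -11.44. Microglia genes were higher in 19 or 20 of 20 cases. Cholesterol synthesis kept it less: its 14 naïve calls of 20 stood beside 11 at 3 days and 3 at 2 weeks after crush. At 2 weeks after crush 4 genes were called lower and the median was -0.32. The 3 higher and 4 lower calls were near the shares of all genes there, 15.9% higher and 16.7% lower. In glaucoma, 14, 8 and 13 of the 20 genes were called higher at 3 days, 2 weeks and 6 weeks, with medians of 1.55, 0.67 and 1.72. Fitted together with those libraries, the naïve median was 1.36.

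**Figure D5:**
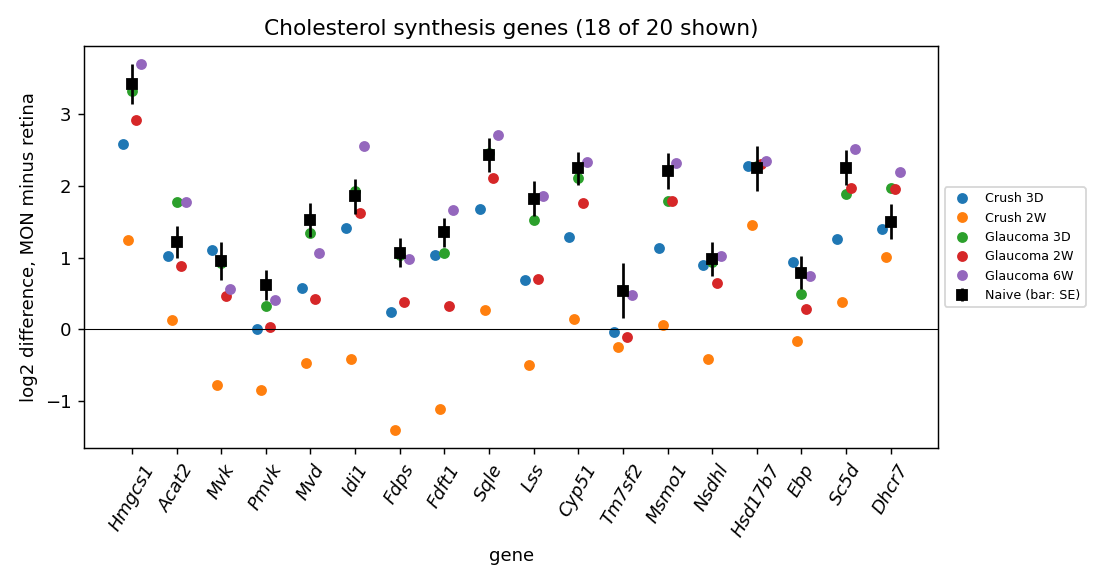
Log2 difference (MON minus retina) of 18 of the 20 cholesterol synthesis genes, with naïve values and their standard error as black squares and the 5 injured conditions as coloured points. Squares come from the naïve fit and coloured points from the separate fit of 24 libraries. The 2 week crush points lie below the naïve squares of the 18 genes drawn, and Hmgcs1 is at 3.41 in naïve mice and 1.25 there.

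At 2 weeks after crush Fdps, which makes farnesyl diphosphate, had a log2 difference of -1.4 against 1.07 ± 0.20 in naïve mice (0.99, not called, without the male retina pool). Another annotated gene on the same strand shares 26.7% of the exonic bases of Fdps, and the counts may hold its reads. Hmgcs1 (1.25), Hsd17b7 (1.46) and Dhcr7 (1.01) were the 3 called higher at 2 weeks after crush. These 3 were also the members called higher in all 5 injured conditions. The injured and the naïve differences came from separate fits, and whether they differ from each other was not tested.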

How the data were processed

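Per the labels and the study's methods, RNA was extracted from each mouse, pooled equally by sex, prepared with an ultra-low-input kit and sequenced as read pairs of 150 bases. The authors aligned reads with HISAT2 2.2.1 to GRCm38 and assembled them with StringTie 1.3.0 on Gencode annotation; use of strand was not given in the sources used here. The deposited gene table held estimated counts, whole numbers that are not normalized. The deposited FPKM values came from StringTie, with 3 values just below 0 set to 0. The deposited coverage signal of the female naïve retina library served to find that a count stands for a median of 74.9 bases, so that a pair of reads adds about 4 counts.

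Genes passed filterByExpr (minimum count 10, total 15). The naïve libraries of retina, UON and MON were fitted with edgeR 4.0.16 (TMM, quasi-likelihood) in R 4.3.3, with terms for group and sex and 2 residual degrees of freedom. A gene was called at a Benjamini-Hochberg adjusted p below 0.05 if its log2 difference also exceeded 1 in size. The sex term is also the replicate block, since pools of one sex came from the same mice. Deviations of same-sex MON and retina pools from their tissue means correlated at 0.032 over 13573 genes. The injured libraries were fitted with the naïve ones of both tissues (24 libraries, 27567 genes, 11 residual degrees of freedom). A gene at 0 counts in 1 tissue was given a floor of 12 counts (3 read pairs) over its pools, which covers counting error only. Alternatives used DESeq2 1.42.0 and limma 3.58.1, other scalings, filters and samples. The comparison and its 40 gene lists were chosen with earlier results of these data known. Genes were named if they were list members, among the 10 largest differences each way, or among the 10 highest by FPKM in a tissue. Some list members are counted in their lists but not reported here by name.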

Additional observations from a re-analysis of the deposited data

How the results depend on the processing

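The counts of 3960 genes higher and 2572 lower moved most under limma on FPKM, which changes the test, the unit and the filter together, and with library size alone. By limma, log2(FPKM + 1) gave 2626 higher and 4409 lower, the same without a filter gave 2315 and 3892, and log2(FPKM + 0.1) gave 4949 lower. Library size alone gave 4115 lower, while RLE factors gave 3792 and 2735 and upper quartile factors 3630 and 2824. These settings moved the median of all genes by up to -0.47. Leaving out 1 naïve pool gave 3346 to 3919 higher and 2013 to 2405 lower. The 4320 calls made the same way in all 5 injured conditions ranged from 3768 to 4234 over the leave-one-out fits. Without the replicate block that pairs pools of the same mice, 4146 genes were higher, 2750 were lower and 4415 calls were made in all 5 injured conditions. Of 200 named genes, 172 had the same call in every setting. Rtn4 was called lower with FPKM (-1.29, -1.3 with the smaller pseudocount, and -1.29 without a filter), and mt-Co1 was 1.16 without the female MON pool and -21.4 without the male. The causes were not tested. Thinning the female MON library to the total of the male gave 3936 higher and 2625 lower.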

Other observations

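Immediate early genes were not a block: 3 of 10 were higher in MON (Arc, Nr4a1 and Dusp1) and 1 was lower. Of all genes tested, 16.7% were higher and 10.9% lower. Without the female MON or the female retina pool, Dusp1 was at 0.57 and 0.98 and Nr4a1 at 0.98 and 1.19 on the log2 scale, and without the male retina pool Nr4a1 was at 1.02, all without a call. The matrix list of lecticans, link proteins and tenascins had 4 of 10 genes higher and 2 lower, beside the same shares of all genes. Its median was 1.39, or -0.12 without the male MON pool.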
